A study of Mus musculus with 10 samples.

Results

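The 8 genes described here, *Nfs1*, *Iscu*, *Hscb*, *Glrx5*, *Isca1*, *Isca2*, *Nfu1* and *Slc25a37*, take part in building iron-sulfur clusters in mitochondria. They were chosen by symbol, as all probes that are not control spots and carry one of these names, out of 34797 symbols on the array. They are measured by 12 probes: *Iscu*, *Isca1*, *Nfu1* and *Slc25a37* by a pair each, the other 4 genes by 1.

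Iron-sulfur clusters are small groups of iron and sulfur atoms that many enzymes need, among them lipoate synthase and several subunits of the respiratory chain. Mitochondria import iron, take sulfur from cysteine and join both on a scaffold protein. A chaperone pair and a glutaredoxin then pass the cluster to carrier proteins, which load it into the final enzymes. White fat cells depend on these enzymes for mitochondrial respiration, and cells that lack iron are known to adjust many genes of iron handling.

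The RNA came from epididymal white adipose tissue (eWAT, the fat pad beside the epididymis) of 10 adult male wildtype mice. The strain is C57BL/6JOlaHsd by the protocol and C57BL/6J by the strain label. From an age of 9 weeks the mice ate a purified low fat diet for 3 weeks and then a high fat diet for 12 weeks, at 29°C throughout. All 10 were then injected with desferrioxamine (DFO), a drug that binds iron, at 100 mg/kg once a day for 5 days, and were killed on day 6 after 2 hours without food. Every array thus carries a mouse of the same group, so no value below compares DFO with no DFO. Mice are named by their replicate number.

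Each array held the RNA of 1 mouse in the dye Cy5 and a common pool in Cy3. The pool holds RNA of all mice of the wider study, controls and these mice included. Values are log2 ratios of mouse over pool after normalization, so that a value of 1 is a doubling relative to the pool. The dyes were not swapped, and a probe's own dye bias is part of its ratio. Ratios were therefore compared between mice and not tested against 0.

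3 of the probes are shown to make clear what was measured. The *Isca1* and *Isca2* probes lie in the coding part of genes for related carrier proteins and share the 8 bases in capitals, which encode part of a stretch common to both proteins. The *Slc25a37* probe lies in the part that encodes the mitochondrial carrier repeat. Their sequences are those of the array's annotation, 5′ to 3′, and positions are in the mouse build mm9.
*Isca1* probe, minus strand of chr13:59858246-59858305: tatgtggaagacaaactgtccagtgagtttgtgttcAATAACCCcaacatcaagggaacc
*Isca2* probe, plus strand of chr12:86115608-86115667: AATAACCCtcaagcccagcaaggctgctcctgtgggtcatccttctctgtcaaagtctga
*Slc25a37* probe, minus strand of chr14:69902797-69902856: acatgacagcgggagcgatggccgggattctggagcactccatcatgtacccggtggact
The *Isca2* probe ends with the stop codon of its gene. The shared run is much shorter than either probe of 60 bases.

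Promoter sequences were found for 5 members (*Nfs1*, *Glrx5*, *Isca1*, *Isca2* and *Nfu1*) in RefSeq, build GRCm38.p6, and not for *Iscu*, *Hscb* and *Slc25a37*. The 250 bases before the start of *Glrx5* and *Isca2* are printed because these genes varied most among the 5. Capitals mark CCAAT, the sequence known to bind the factor NF-Y, or its reverse complement ATTGG.
*Glrx5*, plus strand of chr12:105032368-105032617: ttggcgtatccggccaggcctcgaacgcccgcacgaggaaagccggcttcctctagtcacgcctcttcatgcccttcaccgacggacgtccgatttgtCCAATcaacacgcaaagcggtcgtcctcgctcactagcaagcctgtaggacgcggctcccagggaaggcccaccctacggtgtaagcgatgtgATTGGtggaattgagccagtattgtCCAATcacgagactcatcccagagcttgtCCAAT
*Isca2*, plus strand of chr12:84773020-84773269: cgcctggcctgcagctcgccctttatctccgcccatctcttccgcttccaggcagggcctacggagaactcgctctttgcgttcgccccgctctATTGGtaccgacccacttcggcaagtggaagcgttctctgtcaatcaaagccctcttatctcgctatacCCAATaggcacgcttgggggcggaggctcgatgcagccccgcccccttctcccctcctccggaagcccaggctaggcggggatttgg
CCAAT was found 4 times before *Glrx5*, 2 times before *Isca1* and *Isca2*, and 1 time before *Nfu1*. It was not in the window of *Nfs1*. Of all 27025 promoters of this length, 34.5% held it at least once and 0.918% held it 4 or more times. CCGGAAG, the core bound by ETS factors, was found before *Nfs1*, *Isca1* and *Isca2* and in 7.05% of all promoters. CACGTG, which binds basic helix-loop-helix factors, was in none of the 5 windows and in 6.05% of all promoters. Both strands were read for each motif, no match overlapped that of another motif, and the motifs were picked after the sequences had been seen.

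Median Cy5 signals of the arrays lay between 54.8 and 81.3 units, over a median local background of 32 to 37, and all 12 member probes were well above background in both dyes on all 10 arrays. No member spot was saturated or marked as an outlier. The first principal component of 25035 probes held 76.2% of the variance and set mice 4, 5, 6 and 7 apart from the other 6, while the second held 8.74% and set mouse 2 apart. The labels give no difference between these mice. They are named below only to say where a value lies, are no group of the study, and were not tested against the others. The 5 slides each held 2 of the arrays. No probe of 25120 was called different between slides by limma's moderated F test (1012 at an unadjusted p under 0.05), and the lowest unadjusted p of a member probe was 0.107, for *Nfs1*. Mice 5 and 6 shared a slide, while mouse 4 shared one with mouse 3 and mouse 7 one with mouse 8. With 2 arrays per slide and such differences within slides, the test can miss a slide effect.

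The spread of the 8 members between mice was set against that of the pool. Cy5 held a different animal on each array and Cy3 the same RNA, so a larger spread in Cy5 was likely from the outset. The brighter probe of a gene is used where it has more than 1. The SD of log2 Cy5 over the 10 arrays had a median of 0.32 over the members and 0.20 over all 25123 probes tested, while the SD of log2 Cy3, the pool on the same arrays, had a median of 0.07 and 0.08. Normalized Cy3 was not free of differences that went with the mouse. For the fat cell genes *Fabp4* and *Car3* its SD was 0.56 and 0.58. There the SD was 0.58 and 1.61 in Cy5, and 1.13 and 2.18 in the log2 ratio. A ratio varies that widely only where Cy3 runs opposite to Cy5 over the arrays. By the Pitman-Morgan test, which compares the variances of paired values (Benjamini-Hochberg adjusted over all probes tested), 8 of 8 members had a larger variance in Cy5. Of all probes tested, 59.7% did so, and 0.159% had the larger variance in Cy3, so a call sets no gene apart on these arrays. Over all 12 member probes 10 were called, and the exceptions were the dimmer probes of *Iscu* and *Slc25a37*. The SD of the log2 ratio had a median of 0.30 over the members and 0.18 over all probes tested. The probes tested were not matched to the members in brightness, and the part of brightness in these differences was not tested.

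These calls changed when mice were left out. Without mice 4 to 7, which left 6 mice for the test and was chosen after the values were seen, *Glrx5* alone of the 8 members was called (adjusted p = 0.0385), beside 14.1% of all probes. Leaving out a single mouse left 6 to 8 members called, beside 53.8% to 57.5% of all probes. *Hscb* was lost without mouse 1, 3, 4 or 7 and *Nfu1* without mouse 4 or 5. With slides as a block, *Nfs1* (adjusted p = 0.0948) and *Isca1* (adjusted p = 0.0562) were no longer called and 6 members were, beside 41.2% of all probes. With no normalization between arrays none of the 8 was called, beside 18.7% of all probes, and with median centring in place of loess 4 were called, beside 40.6%.

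**Figure D1:**
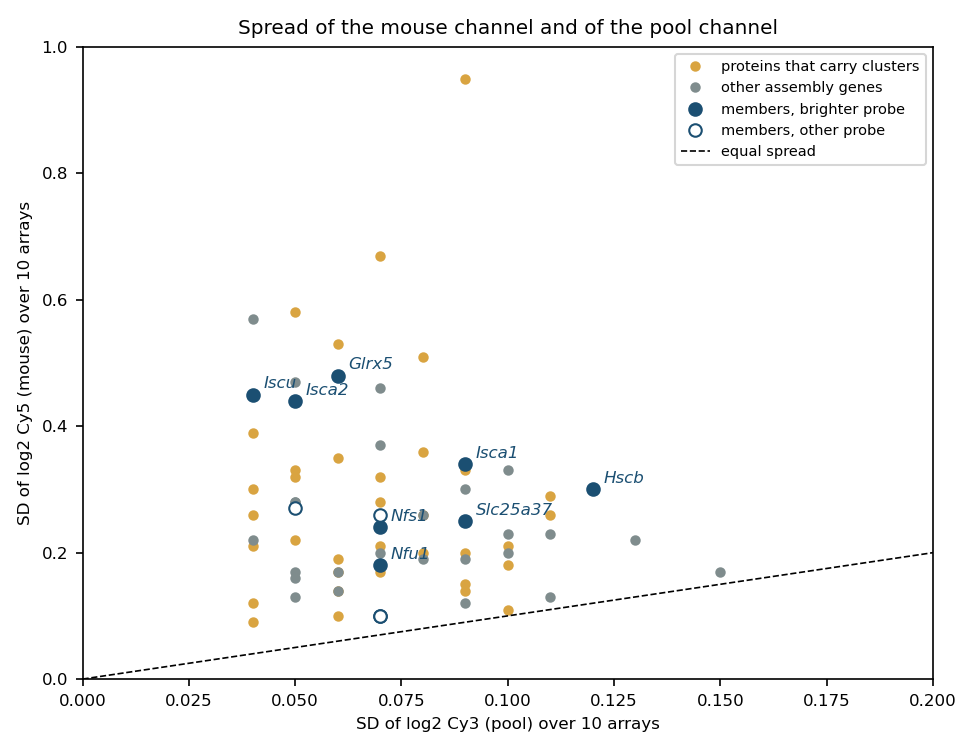
SD over 10 arrays of log2 Cy5 (mouse, vertical axis) against log2 Cy3 (pool, horizontal axis, drawn on a wider scale). Each point is a probe: filled blue points are the members' brighter probes, open blue points their other probes, grey points other assembly genes and yellow points proteins that carry clusters. The dashed line marks equal spread, and the 8 filled blue points lie above it, *Glrx5* highest at 0.48 and *Nfu1* lowest at 0.18.

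*Nfs1* encodes the cysteine desulfurase that supplies the sulfur. Its probe lies at chr2:155949489-155949548 on the minus strand. Its log2 ratio ran from -0.43 in mouse 7 over a median of -0.03 to 0.33 in mouse 9, a 1.69-fold difference between these mice (mean -0.04 ± 0.25, SD, n = 10). Mice 4 to 7 were the lowest 4, between -0.43 and -0.18, just under mouse 3 at -0.11. The SD was 0.24 in Cy5 and 0.07 in Cy3 (Pitman-Morgan adjusted p = 0.00508).

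*Iscu* encodes the scaffold on which the cluster is first built. The brighter probe, chr5:114228198-114228257 on the plus strand, ran from -0.84 in mouse 4 over a median of 0.10 to 0.28 in mouse 8, a 2.18-fold difference (mean -0.18 ± 0.48, SD, n = 10). Its values fell into 2 ranges: mice 4 to 7 lay between -0.84 and -0.59, and the other 6 between 0.01 and 0.28. The SD was 0.45 in Cy5 against 0.04 in Cy3, a ratio of 9.97 and the highest of the 12 member probes (adjusted p = 1.64e-06). The dimmer probe, chr5:114226980-114227039, is linked in the annotation only to Ensembl transcripts. It ran from -0.06 to 0.26, with mouse 4 lowest and mouse 5 highest, and its SD of 0.10 in Cy5 and 0.07 in Cy3 gave an adjusted p of 0.262. Its median log2 Cy5 was 7.44, against 13.18 for the brighter probe. Mouse 4 was lowest on both probes of *Iscu* and the other mice were ordered differently. As the dimmer probe was not called, its order of mice carries little weight.

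*Hscb* encodes the co-chaperone that brings the scaffold to the chaperone Hspa9. Its probe, chr5:111258119-111258178 on the minus strand, ran from -0.49 in mouse 3 over a median of -0.08 to 0.30 in mouse 4, a 1.72-fold difference (mean -0.09 ± 0.27, SD, n = 10). Mice 4 to 7 were here the highest, where they were the lowest for *Nfs1* and *Iscu*: they lay between 0.08 and 0.30, above mouse 2 at 0.03 and the rest. The pool channel varied more than for any other member probe (SD 0.12, against 0.30 in Cy5, adjusted p = 0.0245).

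*Glrx5* encodes the mitochondrial glutaredoxin that hands clusters on from the scaffold. Its probe, chr12:106278828-106278887 on the plus strand, ran from -0.53 in mouse 7 over a median of 0.21 to 0.65 in mouse 9 (mean 0.09 ± 0.49, SD, n = 10). This 2.27-fold difference was the largest of the 12 member probes. Mice 4, 5 and 7 lay at -0.51, -0.51 and -0.53, mouse 6 at -0.17, mouse 2 at 0.07 and the other 5 between 0.35 and 0.65. The SD was 0.48 in Cy5 and 0.06 in Cy3 (adjusted p = 2.32e-05), and 88.3% of all probes tested had a smaller SD of the log2 ratio.

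**Figure D2:**
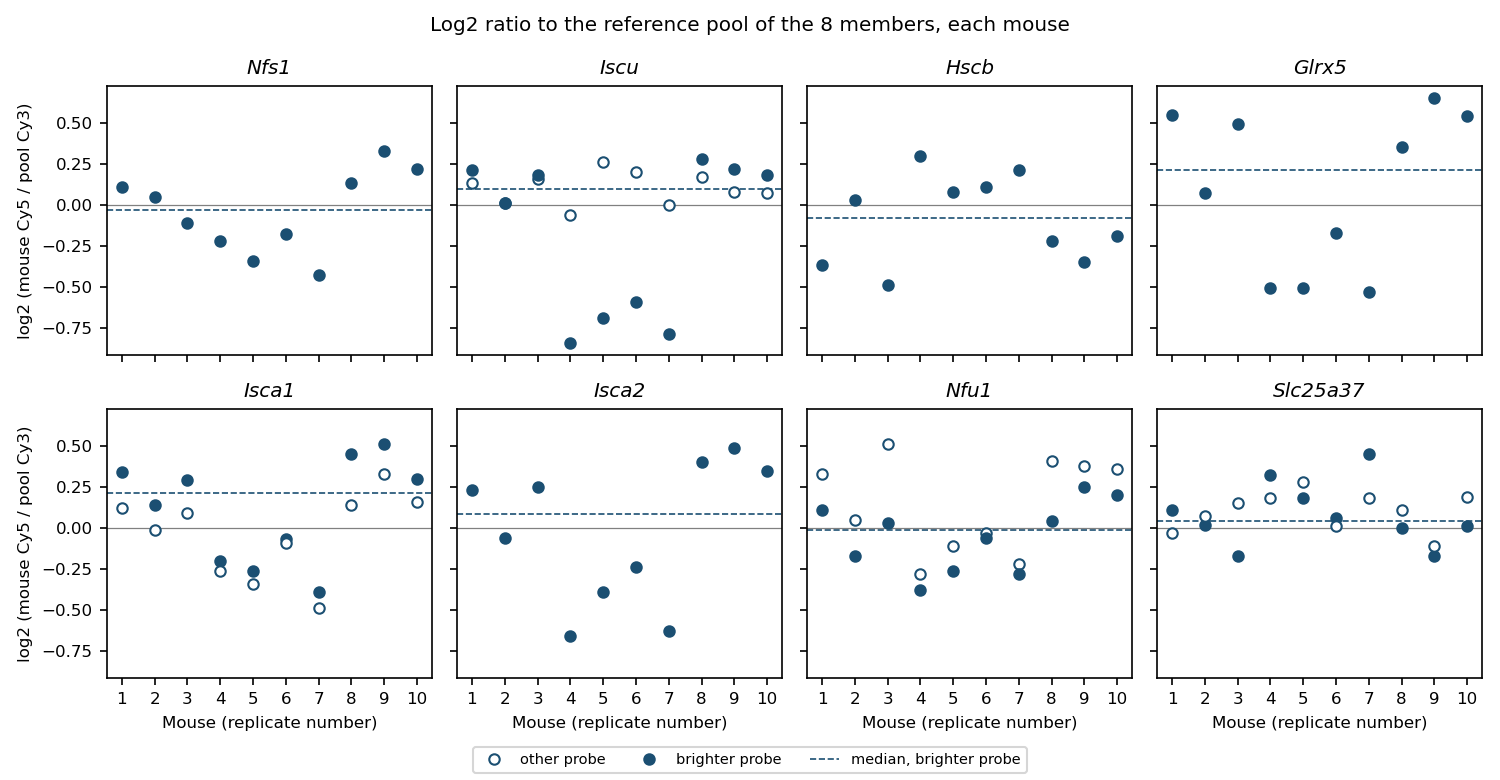
Log2 ratio of mouse Cy5 over pool Cy3 (vertical axis) in each of the 10 mice (horizontal axis, replicate number) for the 8 members. Filled points are the brighter probe, open points the other probe, the dashed line the median of the brighter probe and the grey line 0. Mice 4 to 7 lie lowest for *Nfs1*, *Iscu*, *Glrx5*, *Isca1* and *Isca2* and highest for *Hscb*.

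*Isca1* and *Isca2* encode carrier proteins of 1 family that act together when clusters with 4 irons are made. The brighter *Isca1* probe, chr13:59857299-59857358 on the minus strand, ran from -0.39 in mouse 7 over 0.21 to 0.51 in mouse 9 (1.87-fold, mean 0.11 ± 0.32, SD, n = 10). The *Isca1* probe printed above ran from -0.49 in mouse 7 over 0.04 to 0.33 in mouse 9 (1.77-fold, mean -0.03 ± 0.26, SD). Both *Isca1* probes had mouse 7 lowest, mouse 9 highest and mice 4 to 7 below the others, although mouse 6 at -0.09 and mouse 2 at -0.01 were close on the second. The adjusted p was 0.00167 for the first and 0.00234 for the second. *Isca2* ran from -0.66 in mouse 4 over 0.08 to 0.49 in mouse 9 (2.22-fold, mean -0.03 ± 0.43, SD, n = 10). Here too mice 4 to 7 were lowest, with mouse 6 at -0.24 and mouse 2, the next, at -0.06. Its SD was 0.44 in Cy5 and 0.05 in Cy3 (adjusted p = 1.88e-05).

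*Nfu1* encodes a late-acting protein that delivers clusters to enzymes such as lipoate synthase. The brighter probe, chr6:86978383-86978442 on the plus strand, ran from -0.38 in mouse 4 over -0.02 to 0.25 in mouse 9 (1.55-fold, mean -0.05 ± 0.21, SD, n = 10). The mice overlapped, since mouse 2 at -0.17 lay below mouse 6 at -0.06. It was called with an adjusted p of 0.0236. The other probe is annotated at chr6:86975583-86975643, a span of 61 bases for a probe of 60. It ran from -0.28 in mouse 4 over 0.19 to 0.51 in mouse 3 (1.73-fold), with mice 4 to 7 all below mouse 2 at 0.05 (adjusted p = 0.000113). The 2 *Nfu1* probes shared the lowest mouse and differed in the highest.

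*Slc25a37* encodes mitoferrin 1, which carries iron into mitochondria and is best known from developing red cells. The brighter probe, chr14:69860020-69860079 on the minus strand, ran from -0.17 in mouse 9 over 0.04 to 0.45 in mouse 7 (1.54-fold, mean 0.08 ± 0.20, SD, n = 10). The 3 highest mice were 7, 4 and 5, while mouse 6 at 0.06 lay below mouse 1 at 0.11. Its SD was 0.25 in Cy5 and 0.09 in Cy3 (adjusted p = 0.00128). The probe printed above ran from -0.11 to 0.28 and was not called (SD 0.10 in Cy5, 0.07 in Cy3, adjusted p = 0.40). Its median log2 Cy5 was 6.88, the lowest of the 12 member probes, against 10.21 for the brighter probe. Mouse 9 was lowest on both probes, but on the brighter one mouse 3 also lay at -0.17. As the other probe was not called, its lowest mouse carries little weight.

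Over the members, mice 4 to 7 were the lowest 4 for 5 genes (*Nfs1*, *Iscu*, *Glrx5*, *Isca1* and *Isca2*), the highest 4 for *Hscb*, and overlapped the others for *Nfu1* and *Slc25a37*. Of all probes tested, 23.1% had these mice lowest and 19.2% highest. This order differed with the scale. Median centring moved the median log2 ratio of all probes tested from -0.0065 to 0.358, and relative to that median on each array these mice were lowest for 3 members (16.3% of all probes), highest for 2 (23.1%) and overlapped the others for *Nfs1*, *Isca1* and *Nfu1*. On the values the authors normalized they were lowest for 2 members (15.6% of all probes) and highest for 2 (24.5%).

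Markers of other cells moved with the same mice. The mean log2 ratio of 10 adipocyte markers, all of them above background, lay between -2.66 and -1.60 in mice 4 to 7 and between -0.22 and 0.72 in the others, and 9 of the 10 genes had these mice lowest. The tenth, *Retn*, had no value in mouse 9 and had them lowest among the rest. *Adipoq*, which encodes adiponectin and is made by fat cells, ran from -2.78 in mouse 7 to 0.81 in mouse 9. The mean of 9 macrophage markers above background ran the other way, from 0.71 to 1.0 in mice 4 to 7 and from -1.14 to -0.03 in the others, with all 9 genes highest in mice 4 to 7. Of 8 red cell markers, *Hba-a1*, *Hbb-b1* and *Alas2* were above background. Their mean lay between -2.06 and -1.34 in mice 4 to 7, at -0.94 in mouse 3 and between -0.13 and 0.51 in the other 5, and the red cell membrane genes *Slc4a1*, *Epb42* and *Rhag* were not well above background on enough arrays. Means of 6 endothelial, 3 lymphocyte and 5 mesothelial genes were also lower in mice 4 to 7, at most -0.40, -0.34 and -0.85 there and at least 0.08, -0.13 and -0.55 in the others. Gene by gene, these mice were lowest for 5 of the endothelial, 1 of the lymphocyte and 2 of the mesothelial genes. For the remaining genes of these lists they overlapped the others, and 2 further lymphocyte markers were not well above background. In bulk tissue, fewer cells of a type and less RNA per cell cannot be told apart. The part of these markers in the members' values was not tested.

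**Figure D3:**
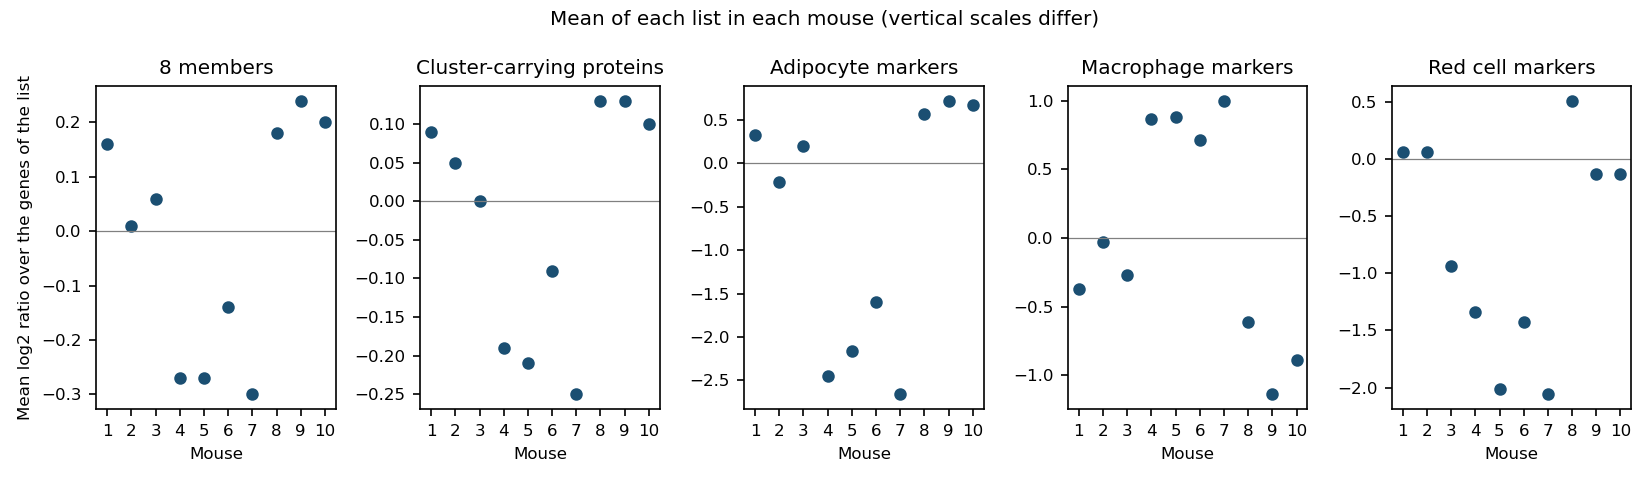
Mean log2 ratio (vertical axis, a scale of its own in each panel) over the genes of each list in each of the 10 mice (horizontal axis). The panels show the 8 members, proteins that carry clusters, and adipocyte, macrophage and red cell markers, and mice 4 to 7 lie lowest in each panel except that of macrophage markers, where they lie highest.

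Relations between members were taken within mice 1, 2, 3, 8, 9 and 10 wherever a measure parted mice 4 to 7 from these, which held for all members but *Nfu1* and *Slc25a37*. Of 60 relations, 28 between members and 32 between a member and the mean of adipocyte, macrophage, red cell or cluster-carrying genes, none passed by Pearson's r or Spearman's rho after Benjamini-Hochberg adjustment. By unadjusted permutation p, 13 were under 0.05 for r and 10 for rho. The closest pair was *Glrx5* and *Nfu1* over 6 mice (r = 0.941, exact permutation p = 0.00556, adjusted 0.125, and rho = 0.886, exact permutation p = 0.0333, adjusted 0.20), and without the 2 mice farthest from the median r was 0.847. *Isca1* and *Isca2* followed (r = 0.930, exact permutation p = 0.00694, adjusted 0.125, and rho = 0.829, exact permutation p = 0.0583, adjusted 0.233), and r fell to 0.629 without the 2 farthest mice. *Nfu1* and *Slc25a37*, the pair taken over all 10 mice, had r = -0.772 (permutation p = 0.00786, adjusted 0.125) and rho = -0.782 (permutation p = 0.0108, adjusted 0.20), and r was -0.629 without the 2 farthest. This pair pools mice 4 to 7 with the others, unlike the pairs over 6 mice. Mice 4 to 7 lay between -0.38 and -0.06 for *Nfu1* and between 0.06 and 0.45 for *Slc25a37*. The other 6 lay between -0.17 and 0.25 and between -0.17 and 0.11. With the same 6 mice for every pair, 12 relations had an unadjusted permutation p under 0.05 for r, and none passed. *Isca2* and the adipocyte mean had r = 0.963 over 6 mice (exact permutation p = 0.00833, adjusted 0.125) and rho = 0.886 (exact permutation p = 0.0333, adjusted 0.20), with r = 0.842 without the 2 farthest. With 6 mice the smallest p an exact test of 720 orders allows is 0.00139. Leaving out 2 of only 6 mice leaves few points, so those values of r carry little weight. The pair over 10 mice kept more.

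Among 18644 genes, those whose centred log2 ratio lay nearest to that of *Glrx5* over the 10 mice were *Oxct1*, *Srpx2*, *Rpap3* and *Gm6222*, with root mean square differences of 0.0682, 0.0684, 0.074 and 0.0759, followed by a transcript without a gene name. *Oxct1* encodes the enzyme that lets cells use ketone bodies. Nearest to *Iscu* were *Shank3*, *BC006779*, *App*, *Dnajc15* and *Gpr125*, at 0.0511 to 0.0642. *Dnajc15* encodes a co-chaperone of mitochondrial protein import. Each of these genes was measured on the same arrays and had mice 4 to 7 lowest, as had 23.1% of all probes tested. The genes were picked for nearness to *Glrx5* or *Iscu*, which had these mice lowest, so this order follows largely from the choice.

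The wider assembly pathway was measured through 28 further genes, of which 27 were above background (*Lyrm7* was not). The variance was larger in Cy5 for 21 of the 27 and larger in Cy3 for none, beside 59.7% of all probes in Cy5. The SD of the log2 ratio had a median of 0.21, and ran from 0.07 for *Ciao1* to 0.58 for *Fdx1*. Mice 4 to 7 were lowest for 8 genes, highest for 7 and overlapped the others for 12, beside the same 23.1% and 19.2%. Among the called genes with the widest spread were *Fdx1*, *Bola3*, *Ciao2a* and *Glrx3*.

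*Fdx1*, a ferredoxin that passes electrons in mitochondria, ran from -0.92 in mouse 7 to 0.52 in mouse 9 (adjusted p = 9.76e-07). *Bola3*, which works with Glrx5 and Nfu1 in delivery, ran from -0.73 in mouse 4 to 0.42 in mouse 9 (adjusted p = 7.6e-05). Both had mice 4 to 7 lowest, as had *Glrx3*, a cytosolic glutaredoxin that ran from -0.66 to 0.13 (adjusted p = 4.59e-05). *Hspa9*, the chaperone that *Hscb* assists, also had them lowest, from -0.51 to 0.26, in contrast to *Hscb* itself. *Ciao2a*, of the cytosolic targeting complex, ran from -0.54 in mouse 3 to 0.61 in mouse 4 (adjusted p = 1.08e-05), with mice 4 to 7 highest. The second probe of each of *Fdx1*, *Bola3*, *Ciao2a* and *Glrx3* put mice 4 to 7 on the same side as the first. *Slc25a28*, mitoferrin 2 and the partner of *Slc25a37* outside the red cell lineage, ran from -0.14 in mouse 4 to 0.42 in mouse 3 (adjusted p = 0.000281), with mice 4 to 7 lowest, while *Slc25a37* had mouse 7 highest.

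**Figure D4:**
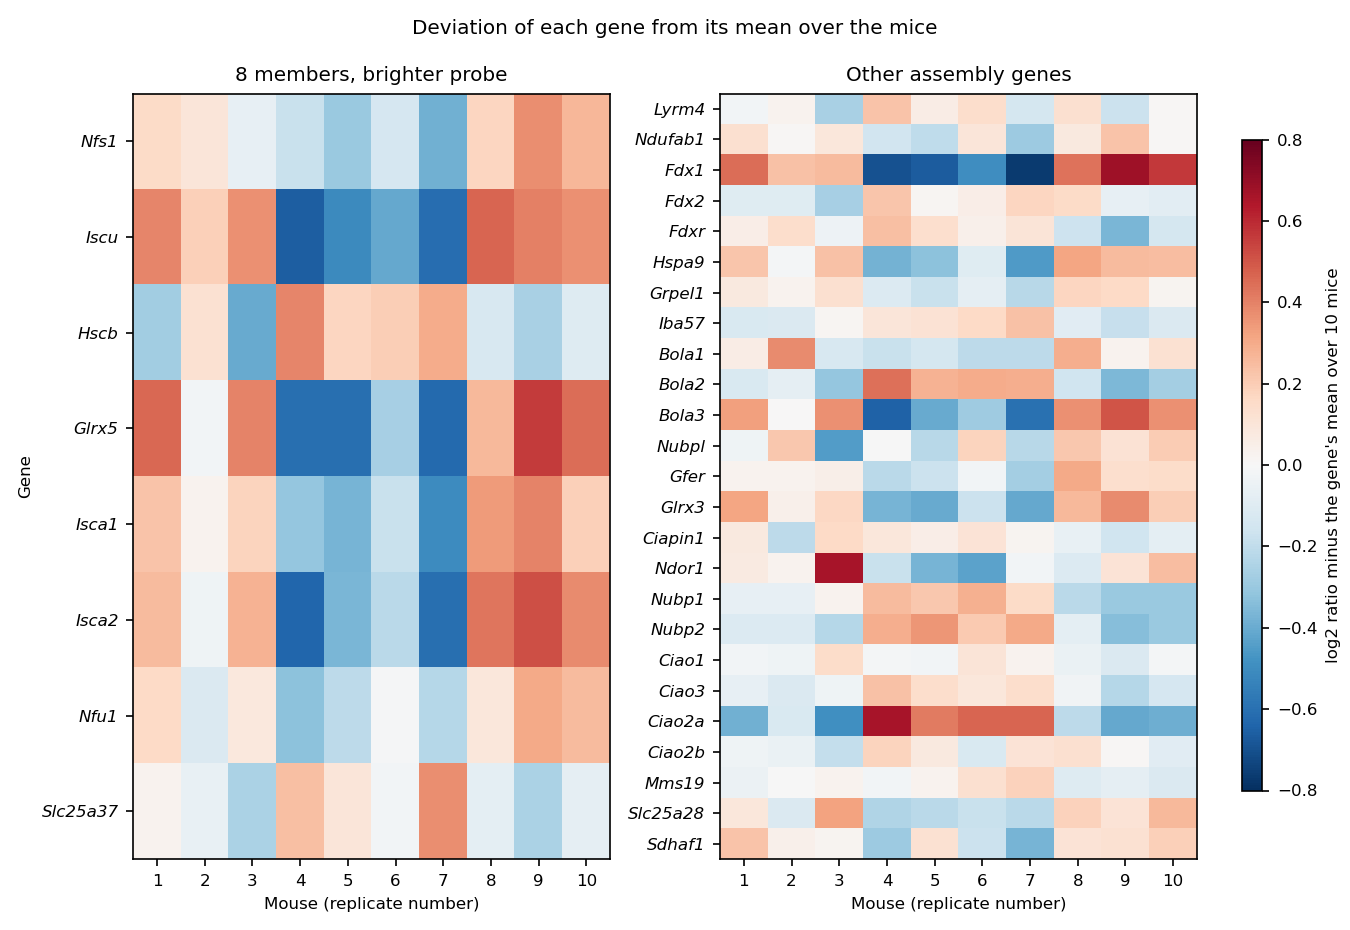
Deviation of the log2 ratio from the gene's mean over 10 mice (colour, red above and blue below) for the 8 members (left) and 25 other assembly genes (right), by gene (rows) and mouse (columns). Mice 4 to 7 are blue for *Iscu*, *Glrx5*, *Isca2*, *Fdx1* and *Bola3* and red for *Hscb* and *Ciao2a*.

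The proteins that receive clusters were followed through 38 genes, 36 of them above background (*Brip1* and *Ddx11* were not). Cy5 varied more than Cy3 for 30 of the 36 and less for none, beside 59.7% and 0.159% of all probes. The median SD of the log2 ratio was 0.23, and mice 4 to 7 were lowest for 16 genes, highest for 6 and overlapped the others for 14, beside 23.1% lowest and 19.2% highest of all probes. The widest spread was in *Dpyd*, an enzyme of pyrimidine breakdown, from -1.72 in mouse 7 to 0.75 in mouse 2 (SD 0.93, adjusted p = 5.07e-06). *Aox1*, aldehyde oxidase, ran from -1.37 to 0.32 (SD 0.68, adjusted p = 7.21e-06), and *Cisd3* and *Cisd1*, which encode mitochondrial cluster proteins, from -0.75 to 0.57 and from -0.85 to 0.45. *Lias*, the lipoate synthase that Nfu1 serves, ran from -1.0 in mouse 7 to 0.43 in mouse 10 (SD 0.52, adjusted p = 0.000113). These 5 genes had mice 4 to 7 lowest, but the second *Lias* probe ran from 0.02 to 0.60 with overlapping mice.

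Ferrochelatase (*Fech*), the last enzyme of heme synthesis, ran from -0.48 to 0.36 (adjusted p = 6.89e-05), with mice 4 to 7 lowest. *Aco1*, whose protein is the cytosolic aconitase with a cluster and an iron-responsive RNA-binding protein without one, ran from -0.12 to 0.18 and was not called (SD 0.11 in Cy5 and 0.10 in Cy3, adjusted p = 0.807). *Ireb2*, the related RNA-binding protein that carries no cluster, ran from -0.31 in mouse 10 to 0.17 in mouse 7 (adjusted p = 0.0105), with mice 4 to 7 highest. *Hspa9*, *Slc25a28*, *Fech*, *Aco1* and *Ireb2* were named for their roles after their values had been seen.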

How the data were processed

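RNA of 10 mice was measured on 2-colour arrays with 60-base probes (Cy5 the mouse, Cy3 a common pool). The deposited scanner files hold, per the file headers, the intensity of each spot and its local background, written by Agilent Feature Extraction 10.7.3.1 without normalization. The log10 ratios of Cy5 over Cy3 in the deposited files come from the same software, which subtracted background and normalized the dyes first. The authors deposited a further table of 30733 spots, whose values are on a log2 scale as judged from the values. Each column followed log2 Cy5 of its array (r between 0.993 and 0.999) and had a median of 8.519. How it was normalized is not given in the sources used here.

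Mean signals were corrected for median local background (normexp, offset 50), normalized by loess within and Aquantile between arrays (limma 3.58.1, R 4.3.3), and spots of 1 probe were averaged, giving 55681 probes. Probes well above background in both dyes on at least 5 arrays, with at least 8 values, were tested (25123). Paired variances of Cy5 and Cy3 were compared with the Pitman-Morgan test and Benjamini-Hochberg adjustment at 0.05, and the scripts were tested on simulated data. A gene was represented by its probe with the highest mean signal. Correlations used all permutations for 6 mice and 100000 for 10 (Python 3.11.15, scipy 1.17.1). Where a measure split the mice as the first principal component did, or had a gap of at least 0.4 of its range, the cluster of 6 mice was used. The number of arrays and the margin over background limit the precision.

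The members, lists and rules were chosen with earlier results of these data known. The text names all members, the 5 genes with the largest SD among the called assembly genes and among cluster proteins, and the 5 genes nearest to each of the pair of members with the largest SD. A gene under this rule is not reported here. Cell markers stand beside the results as measured. Alternatives were the background correction, the normalization, the filter, the test, the slide as a block, the scanner's and the deposited values, all probes of a gene, and leaving out mice.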

Additional observations from a re-analysis of the deposited data

Results flagged for a closer look

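Dixon's test for 1 value apart from the others was run on the 10 mice for 85 measures (the member probes, the assembly genes, the cluster proteins and the list means), and 4 exceeded its limit of 0.466, where chance flags about 1 in 20. None of the 12 member probes did. For *Ppat*, a cluster protein of purine synthesis, mouse 6 at 0.44 lay above the others, which ended at 0.15, a gap of 0.466 of the range. For *Ercc2*, a DNA helicase with a cluster, mouse 9 at -0.20 lay below the others, which began at 0.08 (0.603 of the range). For *Tyw1*, which modifies transfer RNA, mouse 4 at -0.04 lay below the others, which began at 0.15 (0.498 of the range). The mean of 3 sperm genes above background (*Prm1*, *Prm2* and *Tnp1*) was -1.02 in mouse 2 and between -2.79 and -2.10 in the other mice, a gap of 0.609 of the range, and mouse 2 is the mouse that the second component set apart.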

How the results depend on the processing

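The variance test called 15000 probes (59.7% of those tested) and 8 members. It called 4691 probes (18.7%) and 0 members with no normalization between arrays, and 40.6% of probes and 4 members with median centring. Leaving out mice 4 to 7 together, chosen after the data were seen, gave 3543 probes (14.1%) and 1 member. Leaving out 1 mouse gave 13512 to 14453 probes (53.8% to 57.5%) and 6 to 8 members. The median log2 ratio of the members to the pool was -0.03, and 0.51 with median centring, which moved all probes. The settings on the order of mice were also added after the data were seen. Mice 4 to 7 were below the others for 5 members and above for 1, beside 23.1% and 19.2% of all probes. The same counts came with no background subtraction (22.9% and 19.3%) and with the scanner's log ratio (21.5% and 23.5%). The counts were 0 and 0 with median centring (7.0% and 17.3% of all probes). Taken relative to the median of each array, its values gave 3 and 2 (16.3% and 23.1%). The deposited values gave 2 and 2 (15.6% and 24.5%), and 2 and 1 relative to the median of each array (16.7% and 23.7%). The slide called 0 probes under all 6 settings (856 to 2438 at an unadjusted p under 0.05). Relations that passed numbered 0, but 27 with median centring, 7 with the scanner's log ratio, 7 on the deposited values and 58 over all 10 mice, which pools the 2 clusters. Leaving out 1 mouse also gave 0, which says little: without mouse 1, 2, 3, 8, 9 or 10 most pairs keep 5 mice, with a smallest p of 0.00833, and leaving out mouse 4, 5, 6 or 7 does not touch pairs taken over the other 6. The cause of these changes was not tested. With the slide as a block, relations over the 5 differences within slides gave 0, but the exact test of their signs cannot go below a p of 0.0625, so none could pass.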
